A study of Mus musculus with 8 samples.

Results

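DNA replication and mitosis genes are described here in total RNA of mouse myotubes, the multinucleated cells that form when muscle precursors fuse. The set is a list of 36 genes chosen by function, 18 for DNA replication and S-phase entry and 18 for mitosis, out of 18193 genes represented on the arrays. The choice was made with earlier results of these data known. A gene's values are those of its brightest probe set on array type A, by the mean over the 4 RNAs, or on type B where it had none on type A. All 35 members with a probe set had one on type A, so "brightest" below means brightest on type A. For Ccnb1 no probe set was annotated to that gene alone, so it has no value. The study measured 4 RNAs, each on 1 array of type A and 1 of type B, 8 arrays in all. The labels call 1 RNA wildtype, with a treatment given only as "grow", and 1 RNA truncated Egr-3 (truncated Egr3 here), with the same treatment. RNA275 carries only an acclimatization treatment and RNA276 no treatment, so these are given as single RNAs outside the comparison of wildtype with truncated Egr3. The factor under study is a DNA-binding protein of the early growth response family, which muscle spindles need in order to form. The means by which its truncated form was produced, the strain and the number of animals or cultures behind each RNA are not stated in the labels. The question the labels allow is which of these genes differed between the wildtype and truncated-Egr3 RNAs. Egr3 itself read 769 in wildtype, 830 in truncated Egr3, 1454 in RNA275 and 2627 in RNA276 on type A. On type B it read 1419.7, 1039, 1203 and 771, so its probe sets differ in order. Whether either of them lies in the part that was cut away is not stated, so Egr3 gives no check of the labels.

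Replication genes license origins, unwind DNA and supply nucleotides in S phase, and their transcription is switched on by E2F factors once the retinoblastoma protein is phosphorylated. Mitosis genes act later, in condensing, attaching and separating chromosomes, and many are repressed outside G2 and M by the DREAM complex and then activated by B-Myb, FoxM1 and NF-Y. A fused myotube has left the cell cycle for good, so in a muscle culture these transcripts are usually looked for in the precursors that have not fused. In whole-culture RNA, fewer cells of a type and less RNA per cell cannot be told apart.

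The 2 sets, which were defined by function, also differ in how often certain letters occur in their promoters. These letters are shown because they are read independently of the arrays, and they do not divide the 2 sets fully. RefSeq windows of GRCm38.p6, from 250 bases before to 50 bases after the start, were found for 15 of 18 replication members (16 windows) and 15 of 18 mitosis members (15 windows). A CHR element (the letters TTTGAA, a site of the DREAM and B-Myb complexes) was found on either strand in 11 of 15 mitosis windows and 2 of 16 replication windows, against 17.9% of all 32851 windows. An E2F site (TTTGGCGC, TTTCCCGC or TTTCGCGC) was found in 6 of 16 replication windows and 1 of 15 mitosis windows, against 1.84% of all windows. The CCAAT letters bound by NF-Y were in 13 of 15 mitosis and 11 of 16 replication windows, against 37.4% of all windows. The E2F matches at -110 and -106 of Mcm6, and those at -153 and -149 of Mcm5, overlap each other. A match describes letters only. The 250 bases before the start are given below for genes chosen after their array values were seen. The helicase genes Mcm6 and Mcm5 spread widely over the 4 RNAs, and Cdk1, Mki67 and Top2a differed in order among the mitosis members. Ccne1 (3.81-fold) and Pcna (2.91-fold) spread widely too, without an E2F match in their windows. A link between the letters and the array values was not tested. Capitals mark the matches to E2F, CHR and CCAAT letters on either strand.
Mcm6 (chr1:128359706-128359955, minus strand): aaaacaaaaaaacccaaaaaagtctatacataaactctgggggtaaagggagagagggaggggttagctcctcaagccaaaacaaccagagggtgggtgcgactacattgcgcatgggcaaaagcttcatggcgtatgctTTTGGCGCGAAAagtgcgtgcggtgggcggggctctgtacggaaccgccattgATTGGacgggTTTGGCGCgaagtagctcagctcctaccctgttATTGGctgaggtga
Mcm5 (chr8:75109259-75109508, plus strand): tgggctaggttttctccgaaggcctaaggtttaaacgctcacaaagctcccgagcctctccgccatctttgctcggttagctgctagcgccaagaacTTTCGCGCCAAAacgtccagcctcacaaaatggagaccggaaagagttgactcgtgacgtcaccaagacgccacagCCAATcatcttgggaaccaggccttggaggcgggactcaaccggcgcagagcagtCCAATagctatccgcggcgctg
Cdk1 (chr10:69352913-69353162, minus strand): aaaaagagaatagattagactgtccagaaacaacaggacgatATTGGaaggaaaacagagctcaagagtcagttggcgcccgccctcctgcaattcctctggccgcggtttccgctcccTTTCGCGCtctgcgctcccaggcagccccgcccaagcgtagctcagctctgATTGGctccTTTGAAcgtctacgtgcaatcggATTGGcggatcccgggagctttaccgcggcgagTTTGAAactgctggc
Mki67 (chr7:135716380-135716629, minus strand): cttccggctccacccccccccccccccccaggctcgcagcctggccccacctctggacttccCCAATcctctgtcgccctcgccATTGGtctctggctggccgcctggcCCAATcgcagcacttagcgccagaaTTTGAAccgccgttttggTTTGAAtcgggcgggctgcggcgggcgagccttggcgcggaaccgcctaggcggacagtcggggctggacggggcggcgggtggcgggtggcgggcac
Top2a (chr11:99024190-99024439, minus strand): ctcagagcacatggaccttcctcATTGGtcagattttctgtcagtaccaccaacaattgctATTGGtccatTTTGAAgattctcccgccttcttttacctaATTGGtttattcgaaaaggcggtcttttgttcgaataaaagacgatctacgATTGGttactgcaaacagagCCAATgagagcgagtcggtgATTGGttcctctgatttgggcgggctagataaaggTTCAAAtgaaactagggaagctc

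The values are array intensities as deposited, on a scale shared by all arrays, and levels of different genes are not compared. Signals were floored at 67.6 on type A and 112.6 on type B before taking log2, and a difference with 1 RNA at the floor is a lower bound. Of the 35 members with a probe set, 33 were above the floor in at least 1 RNA and 22 in all 4. Of all 18193 genes, 11154 and 8414 were. Tyms (thymidylate synthase) and Ttk (a spindle checkpoint kinase) were below the floor in all 4. Each label has a single RNA, so no difference has a replicate check and no p-value is given. Over the 100 probe sets that array types A and B share, the technical SD was 0.174 for a log2 difference between wildtype and truncated Egr3, and between 0.0930 and 0.119 for the log2 level of an RNA against the mean of the 4. Those probe sets are bright, so dim members vary more, and variation between cultures is not in these SDs. Over the same 100 probe sets, wildtype minus truncated Egr3 averaged 0.141 higher in log2 on type A than on type B. The SD of 0.174 leaves out this offset. Which array type is nearer the true difference was not tested, and all members were read on type A. Where a gene had several probe sets, their disagreement in this log2 difference had an SD of 0.388, over 9695 pairs.

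By their medians, replication genes were lowest in the truncated-Egr3 RNA and highest in RNA276, and mitosis genes spread less over the 4 RNAs. Each gene's log2 signal was set against its own mean over the 4 RNAs. The median of the 17 replication members above the floor in at least 1 RNA was -0.52 in truncated Egr3, -0.17 in wildtype, -0.00 in RNA275 and 0.55 in RNA276. The median of the 16 such mitosis members was -0.12, 0.00, -0.05 and 0.10 in the same order. The replication median minus the mitosis median was thus -0.41 in truncated Egr3, -0.17 in wildtype, 0.05 in RNA275 and 0.45 in RNA276. With members above the floor in all 4 RNAs, a choice made after seeing the data, it was -0.39, -0.03, 0.05 and 0.33. All 10 replication members above the floor in all 4 RNAs were highest in RNA276, against 33.1% of all such genes, and 9 of the 10 were lowest in truncated Egr3, against 24.9%. Of the 12 such mitosis members, 7 were highest in RNA276 and 6 lowest in truncated Egr3. Some of these calls, in both sets, rest on margins within the technical SD. Cdk2 read 255 in RNA276 against 244 in RNA275, and 205 in truncated Egr3 against 208 in wildtype. With equal medians the lowest RNA of Cdk2 was wildtype. In RNA276, Mcm2 read 328 against 307 in truncated Egr3, and Ccnb2 read 165 against 162 in wildtype. RNA275 was the highest for 0 of these replication and 2 of these mitosis members (24.6% of genes), and wildtype for 0 and 2 (17.1%). RNA276 was the lowest for 0 and 1 (26.9%). Both at once held for 9 of 10 replication members and 4 of 12 mitosis members, against 12.5% of genes. The highest RNA was at least 2-fold above the lowest for 7 of the 10 replication members and 2 of the 12 mitosis members, against 14.0% of genes. With members above the floor in at least 1 RNA, RNA276 was highest for 16 of 17 replication and 8 of 16 mitosis members (32.4% of genes), RNA275 for 1 and 2 (25.9%), and wildtype for 0 and 5 (17.7%). Over the same members RNA276 was lowest for 0 and 2 (23.7%). The condition of RNA276 is not stated, so no group is compared by these counts.

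**Figure D1:**
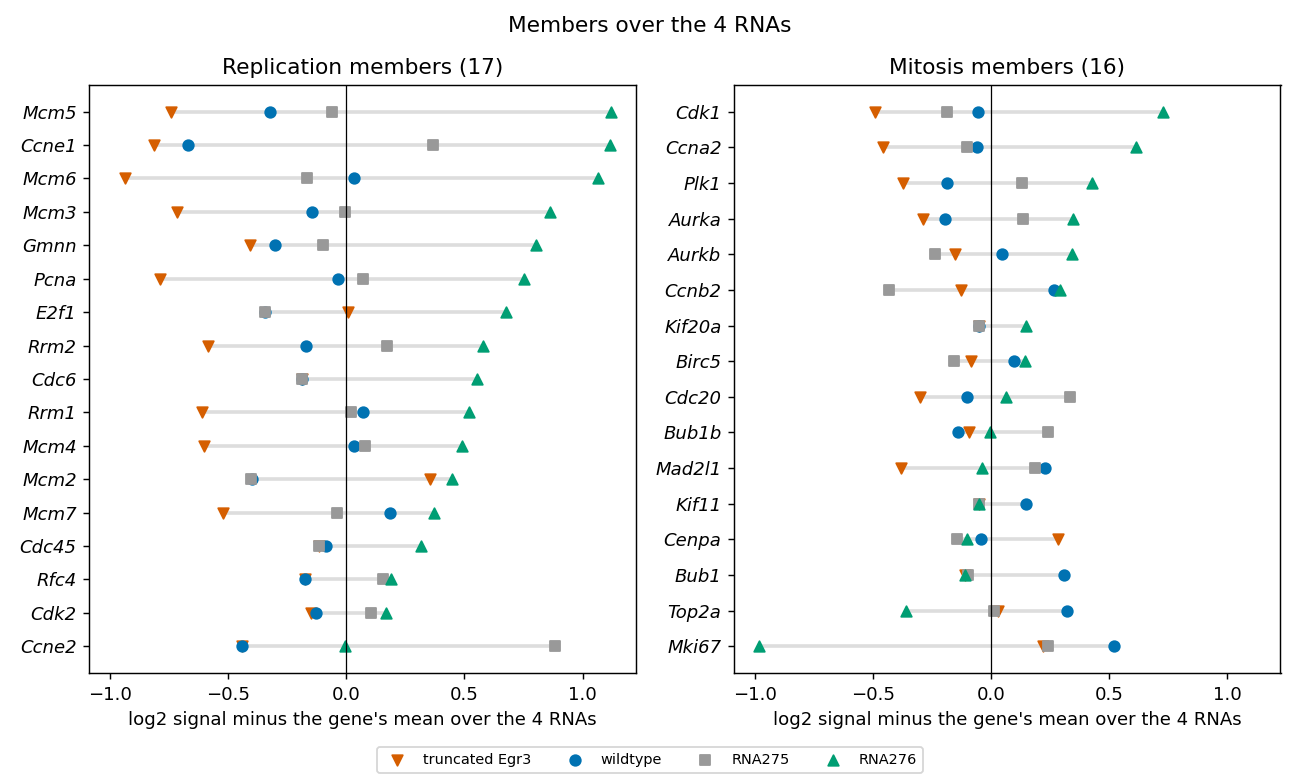
Log2 signal of each member minus that gene's mean over the 4 RNAs (x axis), for the 17 replication and 16 mitosis members above the floor in at least 1 RNA; each marker is 1 RNA, grey bars span the 4, and RNAs at the floor share a position. RNA276 is at the right end for 16 of 17 replication members, while among mitosis members it runs from -0.98 (Mki67) to 0.73 (Cdk1).

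The Mcm2 to Mcm7 proteins form the ring of the replicative helicase. Mcm6 read 182 in truncated Egr3, 356 in wildtype, 310.5 in RNA275 and 729 in RNA276. Mcm5 read 86.4, 115, 139 and 314 in the same order, and Mcm3 read 138, 205, 226 and 412. All 3 were lowest in truncated Egr3 and highest in RNA276, with a span of 4.0-fold for Mcm6, 3.63-fold for Mcm5 and 2.99-fold for Mcm3. Mcm4 read 150.2, 233, 241 and 320.5, and Mcm7 read 401, 655, 561 and 746. These kept the same ends with narrower spans of 2.13-fold and 1.86-fold. Mcm2 was the exception by its brightest probe set, which read 307 in truncated Egr3, 182 in wildtype, 182 in RNA275 and 328 in RNA276. The other Mcm2 probe set read 159, 198, 184 and 302, which is the order of Mcm6. The 2 Mcm2 probe sets thus differ in sign between wildtype and truncated Egr3, at -0.75 and 0.32 in log2, and they share RNA276 as the highest. The name of the brightest carries a suffix letter that marks a match to several transcripts, and the other Mcm2 name does not. The brightest probe sets of Mcm3 and Mcm7 carry such a letter too.

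**Figure D2:**
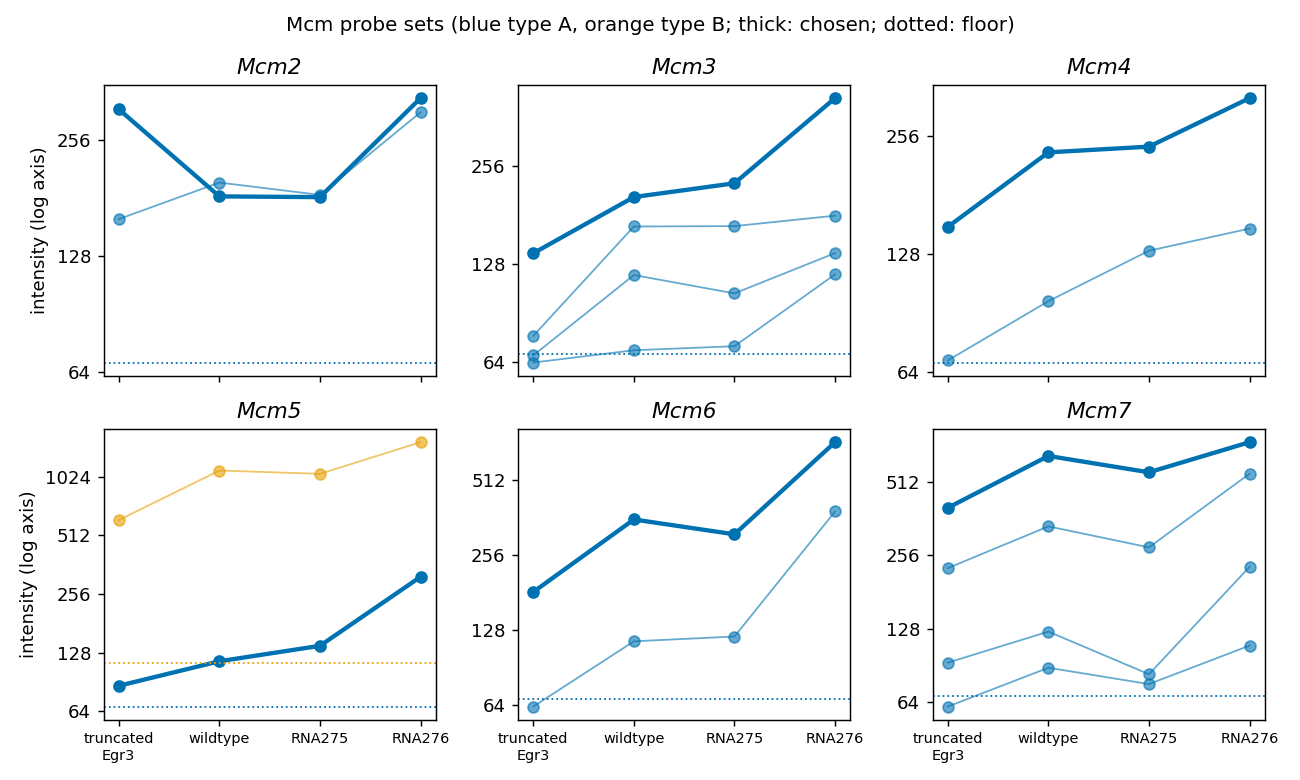
Intensity on a log axis of every Mcm2 to Mcm7 probe set above the floor in at least 1 of the 4 RNAs (x axis; lines only join the values of 1 probe set); thick lines are the brightest probe sets and dotted lines the floors. All the lines shown end highest in RNA276, and only the brightest Mcm2 probe set reads higher in truncated Egr3 (307) than in wildtype (182).

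Other probe sets of the replication members were mostly highest in RNA276 and lowest in truncated Egr3, as most of the brightest ones were. Of 9 further probe sets of replication members that were above the floor in all 4 RNAs, where the brightest one was too, 9 were highest in RNA276 and 8 lowest in truncated Egr3. They cover 7 genes and are not independent of the first probe sets, since they read the same RNA. For mitosis members there were 3 such probe sets, of which 1 was highest in RNA276 and 1 lowest in truncated Egr3. Set against the brightest probe set of the same gene, that of Cdc20 kept both ends, with RNA275 highest and truncated Egr3 lowest. That of Ccna2 kept only the highest RNA, and that of Bub1b kept neither end.

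Factors that load, activate and limit the helicase were near the floor in some RNAs. Cdc6, which loads the Mcm ring at origins, was above the floor in RNA276 alone, at 113, and read 32.3 in truncated Egr3, 64.8 in wildtype and 55.9 in RNA275. Cdc45, which activates the helicase, read 57.2, 69.1, 63.1 and 91.3 in the order truncated Egr3, wildtype, RNA275 and RNA276. Geminin (Gmnn), which blocks a second round of licensing, read 58.7, 72.7, 83.7 and 156. RNA276 was the highest for all 3, and truncated Egr3 was at the floor for each. Pcna, the sliding clamp of DNA polymerase, was bright at 676, 1139.6, 1229 and 1965, a span of 2.91-fold. Rfc4, a subunit of the loader that places the clamp, read 50.7, 59.2, 84.9 and 86.9, with the first pair below the floor. RNA276 was thus the highest for the clamp, while its loader subunit read nearly alike in RNA275 and RNA276. The other Rfc4 probe set was below the floor in all 4 RNAs, at 66.6 in RNA275 and 49.6 in RNA276.

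Rrm1 and Rrm2, the subunits of ribonucleotide reductase, followed the clamp. Rrm1 read 265 in truncated Egr3, 425 in wildtype, 411 in RNA275 and 581 in RNA276. Rrm2 read 295, 394, 499 and 662. Their spans were 2.19-fold and 2.24-fold, with truncated Egr3 lowest for both.

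The regulators of S-phase entry did not share an order. Cyclin E1 (Ccne1), which drives entry with Cdk2, read 58.9 in truncated Egr3, 74.6 in wildtype, 153 in RNA275 and 257 in RNA276. Its type B probe set read 349, 657, 1059 and 2674 in the same order, so both probe sets placed RNA275 and RNA276 above the assigned RNAs. Ccne2, its close relative, peaked elsewhere: it read 169 in RNA275 and 91.3 in RNA276, and 41.7 and 59.8, below the floor, in truncated Egr3 and wildtype. Cdk2 itself differed little, at 205, 208, 244 and 255. E2f1, the transcription factor of replication genes, read 86.0 in truncated Egr3, 64.1 in wildtype, 58.5 in RNA275 and 137 in RNA276. Truncated Egr3 was therefore the second highest for E2f1, while it was the lowest for 11 of the 17 replication members above the floor in at least 1 RNA, against 21.0% of genes.

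Among the mitotic cyclins and their kinase, Cdk1 and cyclin A2 were lowest in truncated Egr3 and highest in RNA276 by their brightest probe sets. Cdk1, the kinase that starts mitosis, read 289 in truncated Egr3, 391 in wildtype, 357 in RNA275 and 673 in RNA276. Ccna2, which acts in S phase as well as G2, read 193, 255, 247 and 406. Ccnb2, a mitotic cyclin, read 124, 162, 99.9 and 165, with RNA275 lowest and wildtype close to RNA276. Cdk1 and Ccna2 were the 2 mitosis members above the floor in all 4 RNAs with a span of 2-fold or more (2.33-fold and 2.10-fold). The other Ccna2 probe set read 217, 267, 199 and 343, with RNA276 again highest but RNA275 lowest.

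The mitotic kinases had small spans. Plk1, which matures the spindle poles, read 120.1 in truncated Egr3, 137 in wildtype, 171 in RNA275 and 209 in RNA276, a span of 1.74-fold. Aurka, also a spindle pole kinase, read 121, 129, 162 and 188. Aurkb and Birc5 (survivin), partners in the chromosome passenger complex, were lowest in RNA275: Aurkb read 119, 137, 112 and 168, and Birc5 read 279.8, 317, 266 and 327. RNA276 was the highest for all 4 of these genes, by 1.55-fold at most over the lowest for Aurka, Aurkb and Birc5.

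The spindle checkpoint and anaphase genes had other orders. Mad2l1, a checkpoint protein, read 153 in truncated Egr3, 233 in wildtype, 226 in RNA275 and 194 in RNA276. Cdc20, which activates the anaphase-promoting complex, was highest in RNA275, at 209.8, 241, 326 and 269.8 in that order. Bub1b, also of the checkpoint, read 99.5, 96.4, 126 and 106, a span of 1.30-fold. Its type B probe set read 225, 220.1, 167 and 181, with RNA275 lowest where the first had it highest. Bub1 was above the floor only in wildtype (90.3) and RNA275 (68.2), and read 59.5 in truncated Egr3 and 32.0 in RNA276. RNA276 was not the highest for any of these 4.

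Mki67 and Top2a, the usual markers of cycling cells, were lowest in RNA276. Mki67, a coat protein of mitotic chromosomes, read 155 in truncated Egr3, 191 in wildtype, 158 in RNA275 and 49.5, below the floor, in RNA276. Top2a, the topoisomerase that untangles sister chromatids, read 363, 445, 359.8 and 277. Wildtype was the highest of the 4 for both. The other Top2a probe set, on type B, read 231, 251, 112 and 201 and so had RNA275 lowest. Cenpa, the histone of centromeres, was highest in truncated Egr3, at 134 against 107 in wildtype, 99.5 in RNA275 and 103 in RNA276. Kif11, the motor that separates spindle poles, was above the floor in wildtype alone (77.4) and read 47.6 in RNA276; Kif20a, a motor of cytokinesis, was above it in RNA276 alone (77.4).

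Between the wildtype and truncated-Egr3 RNAs, no member was 2-fold apart. Of 29 measured members (above the floor in at least 1 of these RNAs), 0 reached 2-fold in favour of wildtype and 0 in favour of truncated Egr3, against 1.13% and 0.534% of 10307 measured genes. At 1.5-fold, 6 members were higher, against 4.59% of measured genes, and 1 was lower, against 4.70%. The 6 were Mcm6 (log2 difference 0.97), Pcna (0.75), Mcm7 (0.71), Rrm1 (0.68), Mcm4 (0.63) and Mad2l1 (0.61). The 1 was Mcm2 (-0.75, but 0.32 by its other probe set). Wildtype was above truncated Egr3 for 20 of the 23 members above the floor in both RNAs, 9 of 10 for replication and 11 of 13 for mitosis, against 48.0% of genes. Over all 29 measured members it was 25, 12 of 14 for replication and 13 of 15 for mitosis, against 49.9% of genes. The exceptions were Mcm2, Cenpa (-0.33) and Bub1b (-0.05), of which the last is within the technical SD. E2f1 was also lower in wildtype, at -0.35 or beyond, since its wildtype array was at the floor. Some members counted as higher in wildtype were within the technical SD too. These were Cdk2 (0.02) and Aurka (0.09), and the lower bounds of Cdc45 (0.03), Gmnn (0.11) and Ccne1 (0.14). With the arrays scaled to equal medians, Cdk2 fell to -0.04 and Cdc45 to 0.

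The median log2 difference of wildtype minus truncated Egr3 was 0.42 over 14 measured replication members and 0.20 over 15 measured mitosis members, beside -0.00 over all measured genes. The mean offset of 0.141 between the array types was not taken out of these medians or of the counts above. Over the members above the floor in both RNAs the medians were 0.60 and 0.20. The medians of the 2 sets differed by 0.22, and by 0.13 to 0.40 over the alternative settings. Of 14 other measured probe sets of replication members, 13 had the sign of the brightest one, and of 5 such mitosis probe sets all 5 did. The Mcm3 probe sets differed among themselves, with the brightest at 0.57 and the 3 other measured ones at 1.11, at least 0.81 and at least 0.04. Ccne1 was at least 0.14 by its brightest probe set, and 0.91 by the probe set on type B, where both RNAs were above the floor.

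**Figure D3:**
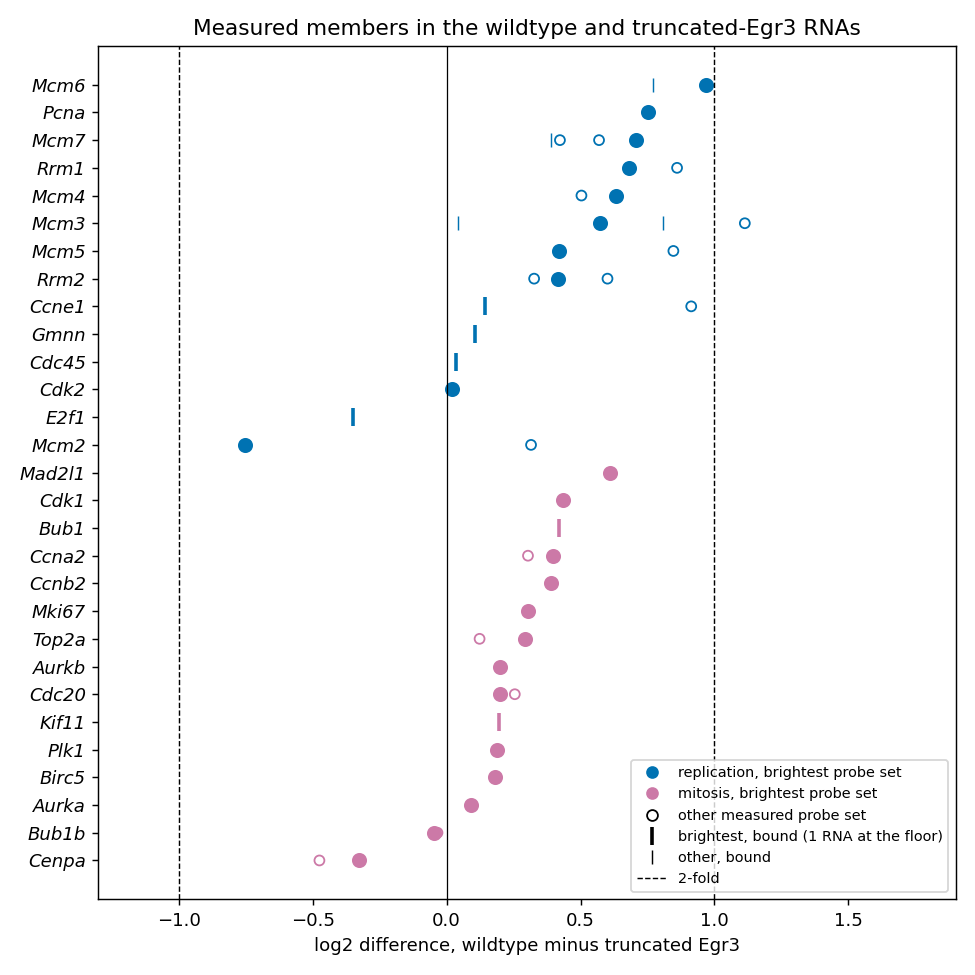
Log2 difference of wildtype minus truncated Egr3 (x axis) for the 29 measured members, replication in blue and mitosis in pink; filled circles are the brightest probe sets, open circles other measured probe sets, and bars lower bounds in size. All brightest probe sets lie inside the dashed 2-fold lines, and 1 other probe set, of Mcm3 at 1.11, lies outside.

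Replication genes outside the 36 also had their lowest median in truncated Egr3 and their highest in RNA276. A list of 50 other replication genes (origin recognition, polymerases, primase, clamp loader and nucleotide enzymes) had 44 above the floor in at least 1 RNA, with medians against the gene mean of -0.24 in truncated Egr3, -0.04 in wildtype, 0.03 in RNA275 and 0.32 in RNA276. A list of 60 other mitosis genes had 50, with medians of -0.11, 0.04, -0.02 and 0.09. Those above the floor in all 4 RNAs were 35 other replication and 36 other mitosis genes. RNA276 was highest for 22 and 18 of them, against 33.1% of all such genes. Truncated Egr3 was lowest for 21 and 18, against 24.9%. RNA276 was lowest for 5 and 6, against 26.9% of all genes. Between wildtype and truncated Egr3, Asf1b, a histone chaperone of replicating chromatin, was the 1 of 41 measured replication genes at 2-fold (166 against 77.6, log2 1.10). The share of all measured genes at least 2-fold higher in wildtype was 1.13%. None of 46 measured mitosis genes reached 2-fold, and the largest differences were those of Nuf2, a kinetochore protein (0.76), and Plk4, the kinase of centriole duplication (0.69, with 0.26 by its other probe set). The medians were 0.21 and 0.10.

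**Figure D4:**
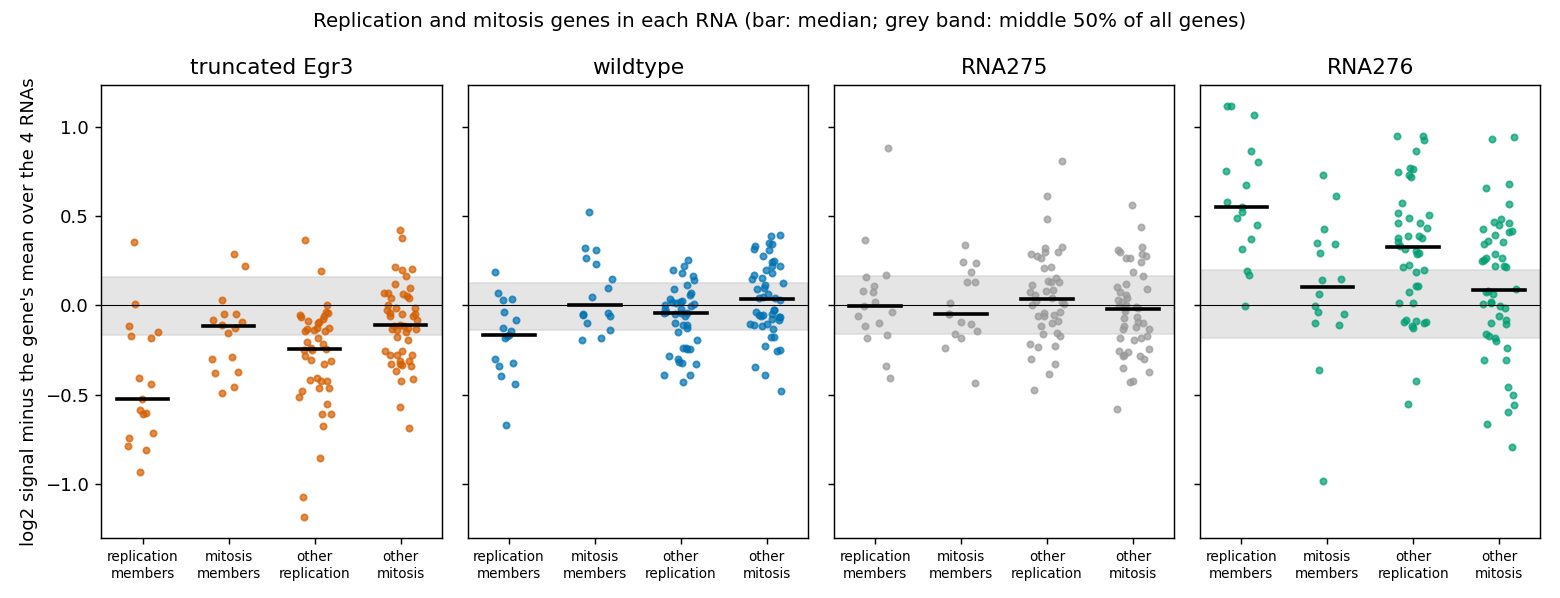
Log2 signal minus the gene's mean over the 4 RNAs (y axis) for replication members, mitosis members and the other replication and mitosis genes, with 1 panel per RNA; points are genes, bars medians and the grey band the middle 50% of all genes. The replication median moves from -0.52 in truncated Egr3 to 0.55 in RNA276, and the mitosis median from -0.12 to 0.10.

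A few of these genes, chosen after their values were seen, show the range within each list. Cdt1, the licensing factor that geminin binds, read 172 in truncated Egr3, 210 in wildtype, 263 in RNA275 and 499 in RNA276. Fen1, the flap nuclease of lagging-strand synthesis, read 126, 220, 504 and 488, with RNA275 and RNA276 both high. Tk1, the thymidine kinase of S phase, read 133, 229, 172 and 387. Among mitosis genes, Pttg1 (securin) read 825, 1139, 1026 and 2340, with RNA276 the highest. The condensin genes Smc2 and Smc4 were lowest there, Smc2 at 189, 237, 226 and 104 and Smc4 at 503, 467, 544 and 290. Cenpf, a kinetochore protein, was also lowest in RNA276, at 64.7, below the floor, against 143, 127 and 107. Mitosis genes outside the 36 thus lay on both sides in RNA276, as Cdk1 and Mki67 did.

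A list of 17 genes held members of the E2F, pocket protein and MuvB families, which control both sets, and also Myc, which is outside these families. Of the 17, 14 were measured, Myc among them, and 1 was 2-fold higher in wildtype, against 1.13% of measured genes. E2f8, an atypical E2F that represses transcription, read 347 in wildtype and 139 in truncated Egr3, a log2 difference of 1.32, and at least 1.22 by its type B probe set. It read 242 in RNA275 and 225 in RNA276, so wildtype was its highest RNA. Among list members chosen after their values were seen, E2f7, its close relative, read 495 in wildtype and 259 in truncated Egr3, and 477 and 614 in RNA275 and RNA276. Rb1, the retinoblastoma protein, was lowest in RNA276, at 173 against 293 to 349 in the others. The median difference of the list was 0.19, and no gene of it was 2-fold lower in wildtype.

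Cell type markers and RNA quality were set beside these values. Of 14 myotube markers, including Myh3, Acta1 and Ckm, 14 were above the floor in at least 1 RNA, against 11154 of 18193 genes. The same share of all genes stands beside the marker counts below. The summed intensity of the myotube markers lay between 27269 and 31017 over the 4 RNAs. Their median against the gene mean was -0.07 in truncated Egr3, 0.13 in wildtype, -0.11 in RNA275 and 0.07 in RNA276. Of 10 satellite cell and myoblast markers 8 were above the floor in at least 1 RNA, with a summed intensity of 2917 in truncated Egr3, 3194 in wildtype, 2500.2 in RNA275 and 3358 in RNA276, and medians of -0.04, 0.15, -0.25 and 0.03. Myf5, which helps define these cells, was below the floor in all 4. Pax7, their defining transcription factor, read below it in all 4 on type A. On type B, however, Pax7 read 416 in truncated Egr3, 354 in wildtype, 526 in RNA275 and 661 in RNA276. RNA276 was thus the highest for Pax7 by that probe set. Vcam1, an adhesion protein of myoblasts, read 146, 157, 155 and 397 in the same order, also with RNA276 the highest. Of the 8 markers above the floor by their brightest probe sets, RNA276 was the highest for 4. It was the lowest for 2 (Heyl and Sdc4). The shares over all genes were 32.4% and 23.7%. The other Sdc4 probe set read 66.3 in truncated Egr3, 83.2 in wildtype, 83.8 in RNA275 and 142 in RNA276. By that probe set RNA276 was the highest for Sdc4. Of 12 fibroblast markers 8 were above the floor, with a sum between 10359 and 12717 and medians of 0.17, 0.19, -0.15 and -0.11. Among these 8, RNA276 was the highest for 1 and the lowest for 3, against 32.4% and 23.7% of genes. The 1 was Col3a1, which read 3536, 3356, 3170 and 3789 by its brightest probe set. Postn and Fap were lowest in RNA276. Postn (periostin, a matrix protein) read 1734, 1539, 977 and 461, and Fap (a surface protease) read 266, 153, 116 and 63.0, the last below the floor. Vcam1, Postn and Fap were chosen after their values were seen. Between wildtype and truncated Egr3, 3 of the 8 fibroblast markers were higher in wildtype and 5 lower. Of these, 1 was at least 2-fold lower in wildtype, against 0.534% of measured genes. It was Dcn, which read 317 in truncated Egr3, 157 in wildtype, 257 in RNA275 and 202 in RNA276. Above the floor in at least 1 RNA were 2 of 11 macrophage markers (sum 421 to 466) and 1 of 5 endothelial markers (sum 94.5 to 141). On type A, the signal near the 3' end over that near the 5' end, a measure of RNA integrity, was 1.13 for beta-actin and 0.782 for Gapdh in RNA276, within the ranges of 1.05 to 1.14 and 0.720 to 0.823 of the other RNAs. Within the myotube list Ttn, which encodes the giant protein titin, had the widest span and was lowest in RNA276, at 354 against 1627 in truncated Egr3, 1850.5 in wildtype and 704 in RNA275. The part of cell makeup and RNA quality in the replication and mitosis values was not tested.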

How the data were processed

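Total RNA of mouse myotubes was measured as 4 RNAs on 2 array types (8 samples). The deposited values are intensities, 1 per probe set, on a linear scale; which software and normalization the authors used is not given in the sources used here. With the top and bottom 2% of probe sets left out, the mean of the deposited intensity was 150.0 on all 8 arrays, and that scale was kept. Gene names came from the platform table, updated by gene number through a RefSeq table of GRCm38.p6; 20380 probe sets on type A and 14661 on type B had 1 symbol. A gene's value is that of the probe set with its highest mean of the 4 RNAs on type A, or on type B for genes with none on type A. Floors were the 50th (type A, 67.6) and 60th (type B, 112.6) percentiles of the wildtype and truncated-Egr3 arrays. The number of arrays limits the precision.

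All 36 members were named. From the other replication, other mitosis and E2F lists, the genes 2-fold apart between wildtype and truncated Egr3 were named, or the 2 largest. From the marker lists, the 1 gene 2-fold apart in this comparison was named. Others chosen after their values were seen are marked so in the text. The members and lists were chosen with earlier results of these data known. A planned ranking of genes by their likeness over the 4 RNAs is not reported, because 4 RNAs are too few for it. Alternatives were other scalings (quantile, equal medians, loess with span 0.3), floors, thresholds and choices of probe set or members. The counting was tested on simulated data. Promoter windows were taken from RefSeq (GRCm38.p6) and searched on both strands. Tables were computed in Python 3.11.15 (pandas 2.3.3, numpy 2.4.6), loess scaling used statsmodels 0.14.6, and plots were drawn with matplotlib 3.10.9.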

Additional observations from a re-analysis of the deposited data

Results flagged for a closer look

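Some members read at least 2-fold above both assigned RNAs in an RNA with no group, which the comparison of wildtype with truncated Egr3 does not use. In RNA276 the log2 distance above the higher assigned RNA was 1.79 for Ccne1, 1.44 for Mcm5, 1.10 for Gmnn, 1.03 for Mcm6 and 1.01 for Mcm3. In RNA275 it was 1.32 for Ccne2 and 1.04 for Ccne1. Not all other measured probe sets of these genes reached 2-fold. In RNA276 the type B probe set of Mcm5 read 1544 against 1104 in wildtype, and the other Mcm3 probe sets read 179.9 against 167, 138 against 118 and 119 against 69.6. The values of Mcm5 and Mcm3 at 2-fold thus rest on 1 probe set each. The other Mcm6 probe set read 384 against 115, and the type B probe set of Ccne1 read 2674 in RNA276 and 1059 in RNA275 against 657. The value of Ccne1 in RNA275 at 2-fold therefore also rests on 1 probe set. For Ccne2 both assigned RNAs were at the floor, so its distance is a lower bound.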

How the results depend on the processing

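Counts of members at least 2-fold apart were 0 in both directions in the deposited scale. With quantile normalization 1 member was higher in wildtype (Mcm6, log2 1.01), and with no floor 1 (Cdc6, in which both RNAs lie below the floor used elsewhere). At 1.5-fold the counts were 6 and 1. The replication median of 0.42 became 0.60 with the higher floor, 0.60 without probe sets whose suffix letter marks a match to several transcripts, and 0.60 over members above the floor in all 4 RNAs; the higher floor and the last choice keep fewer dim members. The replication median minus the mitosis median, 0.22, became 0.40 over members above the floor in all 4 RNAs, and lay between 0.13 and 0.40 over all alternatives. The mitosis median of 0.20 lay between 0.16 and 0.29. Over 10 alternatives, the replication median against the gene mean lay between -0.61 and -0.46 in truncated Egr3, -0.24 and -0.06 in wildtype, -0.02 and 0.02 in RNA275, and 0.49 and 0.70 in RNA276. The mitosis median lay between -0.22 and -0.12 in truncated Egr3, but took both signs in the others: -0.07 to 0.05 in wildtype, -0.07 to 0.11 in RNA275 and -0.02 to 0.23 in RNA276. It was below 0 in RNA276 (-0.02) without probe sets of several transcripts, and with the lower floor RNA275 (0.11) was above RNA276 (0.06). Between wildtype and truncated Egr3, equal medians moved the median of all measured type B genes from -0.03 to -0.17, while all members lie on type A, where it was 0.01 and -0.05. Leaving out Mcm2, and using members above the floor in all 4 RNAs, were chosen after seeing the data. No paired analysis was possible because each label has 1 RNA.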
